A study of Mus musculus with 5 samples.

Results

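Sfrp1, Sfrp2, Sfrp4, Frzb, Wif1, Dkk2, Dkk3, Wnt4 and Wnt5a are 9 genes that encode Wnt ligands and secreted Wnt antagonists, and their RNA was followed while mouse embryonic fibroblasts (MEFs) were converted with 5C medium. They were taken by symbol from a list drawn up with earlier results of these data known, so their counts are not those of a blind choice, and they make up 9 of the 27729 genes listed in each deposited file. Of these 9 genes, 8 had 10 or more counts in 1 or more libraries, and Wif1 did not.

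Wnts are lipid-modified secreted proteins that bind Frizzled receptors. Together with the co-receptors Lrp5 and Lrp6 they keep beta-catenin from being degraded, and through receptors such as Ror1, Ror2, Ryk and Ptk7 they act without beta-catenin. The secreted frizzled-related proteins (Sfrp1, Sfrp2, Sfrp4 and Frzb) and Wif1 bind Wnts outside the cell, whereas Dickkopf proteins such as Dkk2 bind Lrp5 and Lrp6. Mesenchymal cells are a known source of both ligands and antagonists, and Wnt signals are known for their roles in the neural tube, the neural crest and connective tissue.

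The RNA came from MEFs of the ICR strain, which the study prepared from mid-gestation embryos without head and internal organs, passaged after freezing and enriched for strongly attached cells. The day 0 library was made from MEFs kept in medium with serum, and the libraries of days 2, 5, 10 and 14 came from cells moved to 5C, a serum-free medium with N2 supplement, bFGF, LIF, vitamin C and 2-mercaptoethanol. No transgene is named for these cells, and each day was 1 library, so no test between days was possible, no p-value is given and no difference has a replicate check. The labels call the medium 6C, give fewer cells per well than the study's methods, and name day 15 in the treatment text of the library labelled day 14. The libraries held between 2253748 counts on day 2 and 3890334 counts on day 0, so that 3 counts, the floor used here, stood for between 0.771 and 1.33 counts per 1000000.

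The promoters of Dkk2, Sfrp2 and Wnt4 are shown because on day 2 Dkk2 was far above day 0 and Sfrp2 and Wnt4 were below it. RefSeq promoters of GRCm38.p6, which run from 250 bases before to 50 bases after the gene's start, matched 5 of the 9 genes (Sfrp2, Frzb, Wif1, Dkk2 and Wnt4). The windows lie at chr3:132085042-132085341 (plus strand) for Dkk2, chr3:83766071-83766370 (plus strand) for Sfrp2 and chr4:137277385-137277684 (plus strand) for Wnt4, and each is written 5′ to 3′ along its gene. Capitals mark matches on either strand. A TCF/LEF match, the core of the site where the DNA-binding partners of beta-catenin attach, is TCAAAG, and the form that begins with A in place of T was searched as well. A TATA match is TATAAA. A GC box is GGGCGG.
Dkk2: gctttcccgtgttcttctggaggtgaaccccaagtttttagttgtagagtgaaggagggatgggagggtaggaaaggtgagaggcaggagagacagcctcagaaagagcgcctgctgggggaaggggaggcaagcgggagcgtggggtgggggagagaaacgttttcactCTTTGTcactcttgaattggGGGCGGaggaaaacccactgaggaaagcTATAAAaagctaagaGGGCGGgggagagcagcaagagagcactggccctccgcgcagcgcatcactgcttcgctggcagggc
Sfrp2: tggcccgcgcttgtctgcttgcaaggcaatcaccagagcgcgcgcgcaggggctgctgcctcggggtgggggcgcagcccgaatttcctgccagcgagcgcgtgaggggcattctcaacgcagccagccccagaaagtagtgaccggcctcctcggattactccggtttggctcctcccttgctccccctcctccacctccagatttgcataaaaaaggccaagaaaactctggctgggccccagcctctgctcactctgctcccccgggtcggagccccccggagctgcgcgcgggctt
Wnt4: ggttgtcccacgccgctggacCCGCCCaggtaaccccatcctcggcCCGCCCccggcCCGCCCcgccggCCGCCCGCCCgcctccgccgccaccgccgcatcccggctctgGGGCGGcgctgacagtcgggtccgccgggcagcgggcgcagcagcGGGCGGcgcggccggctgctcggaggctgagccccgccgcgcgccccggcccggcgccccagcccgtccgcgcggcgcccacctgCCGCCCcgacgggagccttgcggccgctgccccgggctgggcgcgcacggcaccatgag
The Dkk2 window holds 1 TCF/LEF match at position -80 from the start, 1 TATA match at position -32, and 2 GC boxes. The Sfrp2 window holds none of these letters, although its GC content is 66%. The Wnt4 window holds 8 GC boxes, of which 2 overlap each other, and no TCF/LEF or TATA match. With 51 CpG dinucleotides and a GC content of 84.3%, the Wnt4 window was richer in GC than nearly all others, since 0.158% of the RefSeq promoters had a higher GC content. The start of Wnt4 in GENCODE M21 lies inside the window, upstream of the RefSeq start. Of the other matched promoters, that of Frzb holds 1 TCF/LEF match and 1 GC box, and that of Wif1 holds 1 TATA match and 2 GC boxes. Among all 32851 RefSeq promoters, 31.2% hold a TCF/LEF match, 13.6% a TATA match and 35.7% a GC box, so these matches are common and none is a measured binding site.

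Antagonist RNA was over 2-fold above day 0 on every day of 5C medium for Sfrp4, Frzb, Dkk2 and Dkk3, and from day 5 on for Sfrp1 and Sfrp2, while Wnt4 RNA was over 2-fold below day 0 on every day and Wnt5a RNA stayed within 2-fold by normalized counts. In bulk RNA, fewer cells of a type and less RNA per cell cannot be told apart. Normalized counts are scaled to equal effective library size by the TMM method, and a change is their log2 ratio to day 0 after 1 is added to each. A change in TPM also has 1 added to each TPM value, which makes the changes of genes at a few TPM smaller. A gene is counted as above or below where this change passes 2-fold. The 95% intervals come from the counts of the libraries compared and cover counting error only, since reads without molecular identifiers are not independent molecules.

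**Figure D1:**
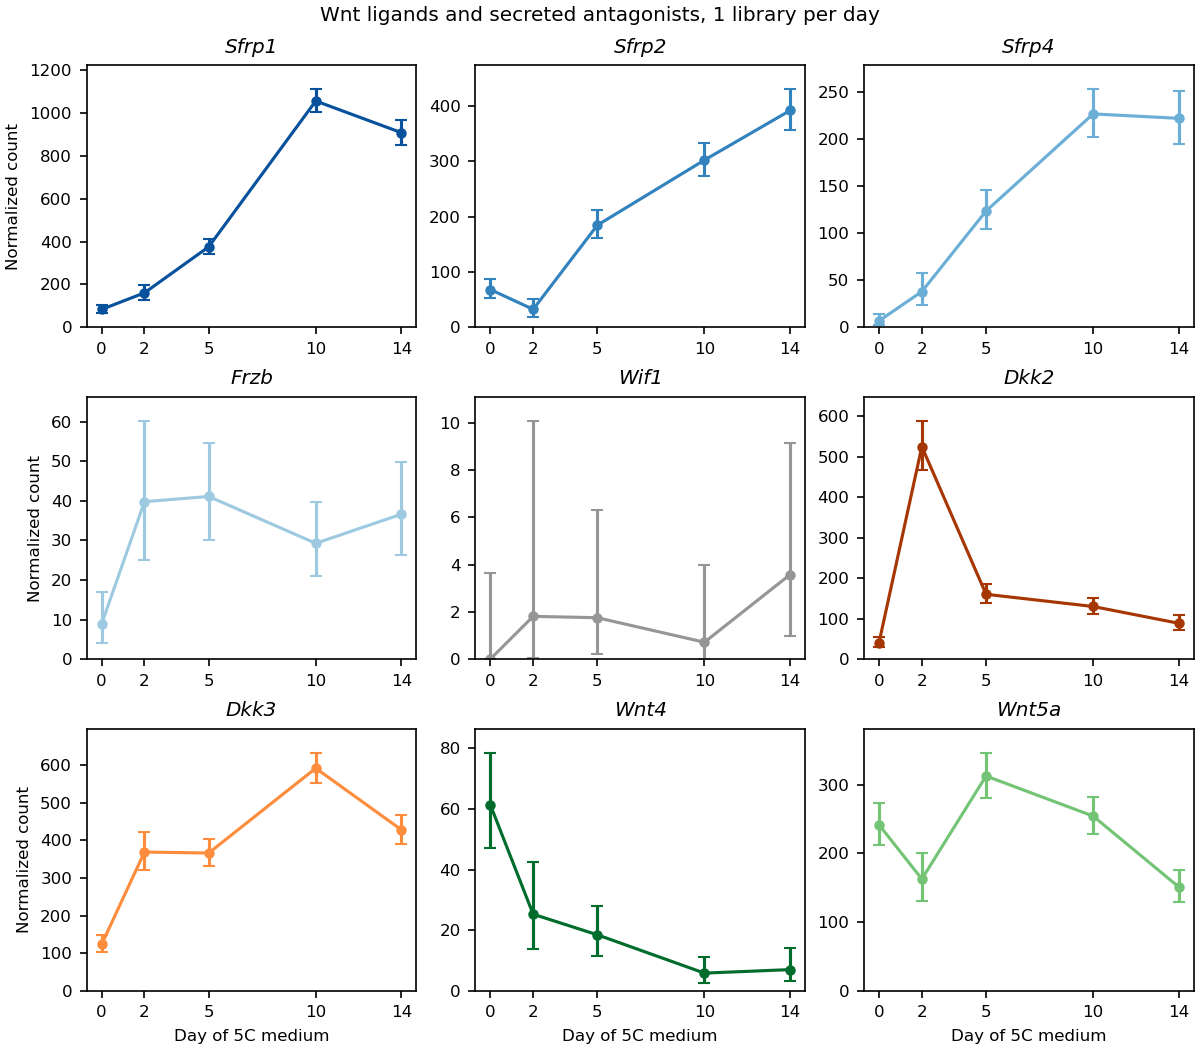
Normalized counts (y axis, linear from 0, a different range in each panel) of the 9 genes in the 5 libraries (x axis, day of 5C medium), 1 point per library, with 95% Poisson intervals of the counts as bars. Sfrp1 reaches 1055 on day 10 and Dkk2 525 on day 2, Wnt4 is highest on day 0 with 61.4, and the bars of Wif1 overlap on all days.

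On day 2, 4 of the 9 genes were above (Sfrp4, Frzb, Dkk2 and Dkk3), where 15.2% of the 13346 genes compared were above, and 2 were below (Sfrp2 and Wnt4), where 13.1% of the genes compared were below. On day 5, 6 of the 9 were above (Sfrp1, Sfrp2, Sfrp4, Frzb, Dkk2 and Dkk3) against 20.2% of the genes compared, and Wnt4 alone was below against 13.6%. The same 6 genes were above and Wnt4 was below on day 10, when 28.7% of the genes compared were above and 22.3% below. This was also so on day 14, when 24.5% of the genes compared were above and 19.9% below. In the order of the days in 5C medium, the median change of the 9 genes was 1.49, 1.56, 1.66 and 1.93, beside -0.03, 0.05, 0.14 and 0.07 over all genes compared. The median of day 2 is the value of Wif1, which had 0 counts on day 0 and 1 count on day 2. Without Wif1 the medians were 1.25, 1.76, 1.89 and 1.85 in the same order. The intervals of Wif1 have no upper bound, since it had 0 counts on day 0, and among the other 8 genes those of Sfrp4, Frzb and Wnt4, which had few counts in 1 or more libraries, are wide.

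**Figure D2:**
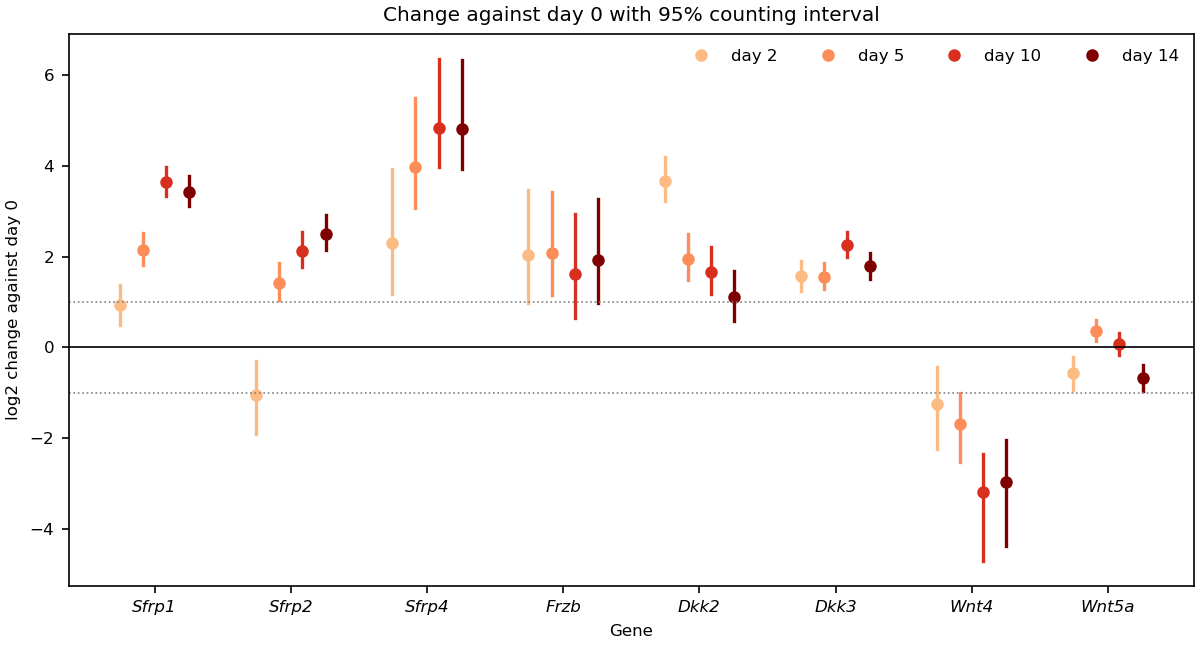
Change against day 0 (y axis, log2 ratio of normalized counts) of the 8 genes with 10 or more counts in a library (x axis), 1 point for each of days 2, 5, 10 and 14, with 95% counting intervals as bars and dotted lines at 2-fold. Sfrp4 is highest at 4.84 on day 10, Wnt4 lowest at -3.19 on day 10, Sfrp2 lies below 0 on day 2 alone, and Wnt5a stays between the dotted lines.

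Sfrp1, Sfrp2 and Sfrp4 encode secreted proteins with a Frizzled-like cysteine-rich domain that binds Wnts. All 3 were over 2-fold above day 0 on days 5, 10 and 14, and they differed on day 2. Sfrp1 (ENSMUSG00000031548, GRCm38 chromosome 8, 23411502 to 23449632, plus strand) had normalized counts of 83.9, 161, 376, 1055 and 907 in the order of the 5 days. Its level was higher on each day than on the one before up to day 10, and the day 14 library was lower than the day 10 library. Sfrp1 was 4.44-fold above day 0 on day 5 and 12.4-fold above on day 10 (log2 change 3.64, interval 3.33 to 3.98). The day 2 change of Sfrp1 was 0.93 (0.49 to 1.38) and did not pass 2-fold, though it did less the median of genes of like length (1.06). From day 5 to day 10 Sfrp1 changed by 1.49 (1.34 to 1.65), and from day 10 to day 14 by -0.22 (-0.33 to -0.10).

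Sfrp2 (ENSMUSG00000027996, chromosome 3, 83766321 to 83774316, plus strand) had normalized counts of 68.3, 32.6, 184, 302 and 391, from 69 expected counts on day 0 and 18 on day 2. The day 2 library was the lowest and the day 14 library the highest. Sfrp2 was 2.06-fold below day 0 on day 2 (log2 change -1.05, interval -1.90 to -0.30) and 5.66-fold above on day 14 (2.50, interval 2.15 to 2.91). On day 2 its change was under 2-fold with a pseudocount of 5 (-0.96), less the median of genes of like length (-0.95) and with quantile normalization (-0.94). Between day 2 and day 5 Sfrp2 changed by 2.47 (1.81 to 3.29), the largest of the steps after day 2 among the 8 genes. Exons of Sfrp2 share 347 bases with the antisense gene Gm26771, to which RSEM gave at most 2.98 counts in a library, and whether the counting used strand is not given in the sources used here.

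Sfrp4 (ENSMUSG00000021319, chromosome 13, 19623104 to 19632994, plus strand) had normalized counts of 6.93, 38.0, 123, 226 and 222. It was lowest on day 0, with 7 expected counts, and the libraries of days 10 and 14 did not differ beyond counting error (-0.03, interval -0.28 to 0.21). Sfrp4 was 4.92-fold above day 0 on day 2 (log2 change 2.30, interval 1.17 to 3.93), 15.7-fold above on day 5 and 28.7-fold above on day 10 (4.84, interval 3.97 to 6.36). On day 10, 1.81% of the genes compared had a higher change than Sfrp4. The low count of day 0 makes this fold uncertain by counting alone, as the width of its interval shows.

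Frzb, also named Sfrp3, encodes another frizzled-related protein, known from cartilage. Frzb (ENSMUSG00000027004, chromosome 2, 80411970 to 80447625, minus strand) had 9, 22, 47, 41 and 41 expected counts and normalized counts of 8.91, 39.8, 41.1, 29.3 and 36.6. The day 0 library was the lowest, and the other 4 libraries lay close together. Frzb was above day 0 by 2.04 on day 2 (0.98 to 3.46) and by 1.93 on day 14 (0.98 to 3.27) on the log2 scale. No step between neighbouring libraries after day 2 was beyond counting error (0.05, interval -0.71 to 0.85, then -0.48, interval -1.13 to 0.15, then 0.31, interval -0.34 to 0.98). On day 2 the change of Frzb was under 2-fold in TPM (0.79) and in TPM centred on all genes (0.99), after 1 was added to each TPM value. Its TPM values themselves, 1.80 on day 0 and 3.83 on day 2, were over 2-fold apart, so these changes depend on the added 1. In centred TPM it was also just under 2-fold on day 5 and 0.48 on day 10, and with quantile normalization it was 0.96 on day 10. RSEM's gene length for Frzb was 1756 bases on day 0 and between 2494 and 3149 bases later.

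Dkk2 was highest on day 2, when Sfrp2 was lowest. Dkk2 encodes a Dickkopf protein that can block or, in some settings, raise signalling through Lrp6. Dkk2 (ENSMUSG00000028031, chromosome 3, 132085292 to 132180304, plus strand) had normalized counts of 40.6, 525, 160, 130 and 88.5, from 41 expected counts on day 0 and 290 on day 2. All libraries in 5C medium were higher than day 0, and the normalized counts were lower with each later day after day 2. The step of Dkk2 from day 5 to day 10 lay within counting error (-0.30, interval -0.61 to 0.003). In TPM, Dkk2 was higher on day 10 (27.8) than on day 5 (25.0). Dkk2 was 12.6-fold above day 0 on day 2 (log2 change 3.66, interval 3.22 to 4.20), and 0.959% of the genes compared had a higher change. It was 3.88-fold above on day 5, 3.15-fold on day 10 and 2.15-fold on day 14 (1.11, interval 0.59 to 1.69). From day 2 to day 5 Dkk2 changed by -1.71 (-1.99 to -1.44). Genes of like length, the 667 genes of its length bin, had a median change of 0.69 on day 10 and 0.46 on day 14, and the changes of Dkk2 less these medians were 0.97 and 0.65, under 2-fold. The day 14 change of Dkk2 was also under 2-fold in TPM centred on all genes (0.98) and with quantile normalization (0.79).

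Dkk3 encodes the most divergent Dickkopf protein, which lacks a settled role at Lrp5 or Lrp6. Dkk3 (ENSMUSG00000030772, chromosome 7, 112116017 to 112159057, minus strand) had normalized counts of 124, 369, 366, 592 and 428. The day 0 library was the lowest and the day 10 library the highest, and days 2 and 5 did not differ beyond counting error (-0.01, interval -0.25 to 0.24). The changes of Dkk3 were 1.57 (1.25 to 1.91), 1.56 (1.28 to 1.87), 2.25 (1.99 to 2.54) and 1.78 (1.50 to 2.09) in the order of the days, all past 2-fold.

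Wif1 encodes Wnt inhibitory factor 1, which binds Wnts directly. Wif1 (ENSMUSG00000020218, chromosome 10, 121033960 to 121100650, plus strand) had 0, 1, 2, 1 and 4 expected counts. Days 0, 2, 5 and 10 were under the floor of 3 counts, and day 14 was just over it. A change of Wif1 was not detectable at this depth, since the 95% interval of the log2 ratio of day 14 to day 0 begins at -0.75.

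Wnt4, a ligand known from kidney, gonad and synapse formation, had its highest level in the starting MEFs. Wnt4 (ENSMUSG00000036856, chromosome 4, 137277489 to 137299726, plus strand) had 62.0, 14.0, 21.1, 8.19 and 7.84 expected counts and normalized counts of 61.4, 25.3, 18.5, 5.85 and 7.01. The 4 libraries in 5C medium were all lower than day 0. Wnt4 was 2.37-fold below day 0 on day 2, 3.20-fold below on day 5, 9.11-fold below on day 10 (log2 change -3.19, interval -4.70 to -2.36) and 7.79-fold below on day 14. On day 10, 1.80% of the genes compared had a lower change. The step from day 5 to day 10 was -1.51 (-3.07 to -0.45), and the steps from day 2 to day 5 and from day 10 to day 14 lay within counting error. Its day 2 change was -0.96 in TPM values centred on all genes, under 2-fold, after 1 was added to each TPM value. In TPM the median of all genes was 0.56 higher on day 5 than by normalized counts. The day 5 change of Wnt4 in TPM, with this 1 added, was -0.80 and under 2-fold. Its TPM itself was 5.15 on day 0, 1.76 on day 2 and 2.54 on day 5, over 2-fold below day 0 on both later days.

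Wnt5a, the best known ligand of the branch that works without beta-catenin, stayed within 2-fold of day 0 by normalized counts. Wnt5a (ENSMUSG00000021994, chromosome 14, 28504750 to 28527448, plus strand) had normalized counts of 241, 163, 312, 254 and 151. The day 5 library was the highest, the day 14 library the lowest, and day 0 lay between them. Its changes against day 0 were -0.57 (-0.93 to -0.21), 0.37 (0.13 to 0.61), 0.07 (-0.16 to 0.32) and -0.67 (-0.97 to -0.39), none past 2-fold. Its step between days 2 and 5 was 0.94 (0.60 to 1.29), and that between days 10 and 14 was -0.75 (-1.02 to -0.48). Both the direction of Wnt5a and its place within 2-fold depend on the scaling. In TPM it was just past 2-fold below day 0 on day 2, and its changes on days 5, 10 and 14 were 1.05, 1.54 and 0.34. Less the median of genes of like length they were -0.93 on day 10 and -1.18 on day 14, the latter past 2-fold. RSEM's gene length for Wnt5a, which has 6 annotated transcripts, lay between 4556 bases on day 10 and 7009 bases on day 2. Exons of Wnt5a share 358 bases with the antisense gene Gm2670, to which RSEM gave between 2 and 4.13 counts.

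Levels of different genes were compared in TPM, which is per length. On day 0 the highest was Wnt5a with 14.5 TPM, and it was not told apart by counting from Sfrp2 with 13.4 TPM, nor Sfrp2 from Dkk3 with 13.0 TPM. Sfrp1 followed with 6.74, Wnt4 with 5.15, Dkk2 with 3.86, Frzb with 1.80, Sfrp4 with 1.40 and Wif1 with 0 TPM, and of these neighbours Sfrp1 and Wnt4, Wnt4 and Dkk2, and Frzb and Sfrp4 were not told apart by counting. On day 2 Dkk2 was first with 41.6 TPM, beyond counting error above Dkk3 with 32.2, and Sfrp1 came next with 10.8 TPM. Below them Wnt5a (6.76), Sfrp4 (6.39), Sfrp2 (4.79) and Frzb (3.83) were not told apart from the next of these 4, and Wnt4 had 1.76 and Wif1 0.36 TPM.

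On day 5 Dkk3 (62.9 TPM), Sfrp2 (57.9) and Sfrp1 (49.5) led without a difference between neighbours beyond counting error, followed by Sfrp4 with 40.6, Wnt5a with 31.1, Dkk2 with 25.0, Frzb with 7.53, Wnt4 with 2.54 and Wif1 with 0.68. On day 10 Sfrp1 was first with 191 TPM, Sfrp2 (141) and Dkk3 (140) were not told apart, and Sfrp4 had 102 and Wnt5a 44.1 TPM. Dkk2 (27.8), Frzb (7.36), Wnt4 (1.10) and Wif1 (0.26) came last. On day 14 Sfrp2 (140.2 TPM) and Sfrp1 (134) were not told apart, nor were Dkk3 (82.4) and Sfrp4 (81.8), nor Wnt5a (18.7) and Dkk2 (15.5). Frzb then had 9.50, Wif1 1.55 and Wnt4 1.08 TPM. Wnt4 and Wif1 were not told apart by counting in any library of 5C medium. Sfrp4 thus moved from the eighth place on day 0 to the fourth on days 10 and 14, and Wnt5a from the first to the fifth.

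In the order of the 5 days, the 7 antagonist genes together had 40.2, 99.9, 244, 609 and 465 TPM, while Wnt4 and Wnt5a together had 19.7, 8.52, 33.6, 45.2 and 19.8 TPM. The summed antagonist level was 2.04, 11.7, 7.26, 13.5 and 23.5 times the summed ligand level in the same order. These ratios compare RNA within a library and say nothing of protein. Sums of different days, here and below, also carry the shift of all genes in TPM. The median TPM change of all genes compared was -0.20, 0.61, 1.09 and 0.78 on days 2, 5, 10 and 14. By normalized counts Wnt5a was 241 on day 0 and 254 on day 10, and Wnt4 was lower on day 10 than on day 0. The make-up of the antagonist sum also differed between days, since Dkk2 held 9.60% of it on day 0, 41.6% on day 2 and 3.33% on day 14. Sfrp1, Sfrp2 and Sfrp4 together had 21.6, 21.9, 148, 434 and 356 TPM. The antagonist sum of day 2 was thus higher than that of day 0 largely through Dkk2 and Dkk3, whose own sum was 16.8 TPM before and 73.8 TPM after the change of medium.

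**Figure D3:**
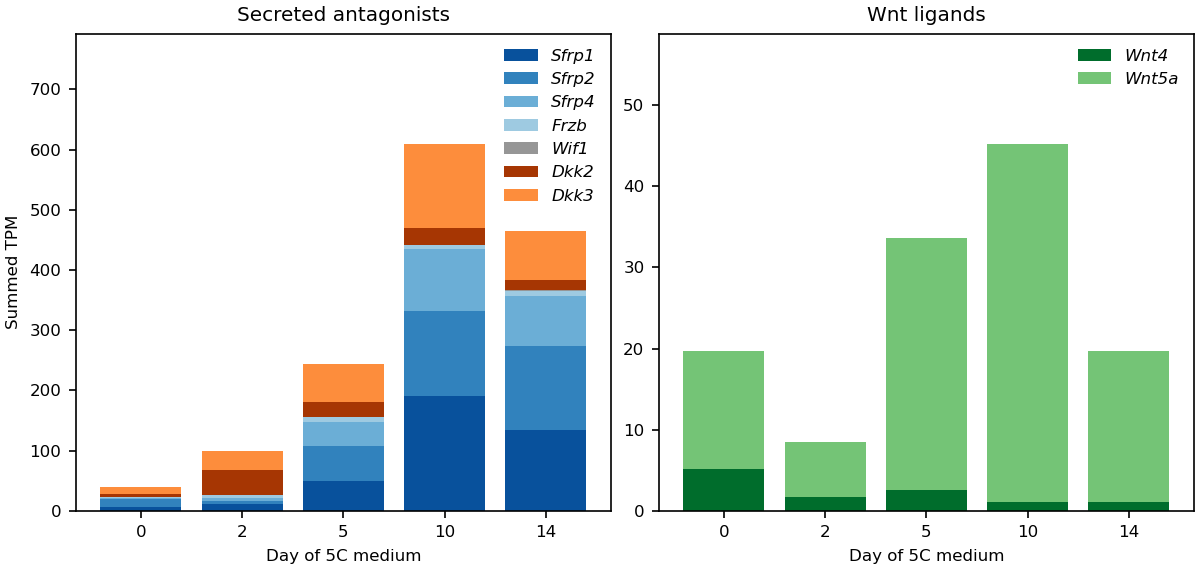
Summed TPM (y axis, from 0, with a different range in each panel) of the 7 secreted antagonists (left) and of Wnt4 and Wnt5a (right) on each day of 5C medium (x axis), 1 library per bar, with a colour for each gene. The antagonist bars reach 609 TPM on day 10, Dkk2 takes 41.6% of the day 2 bar, and the ligand bars lie between 8.52 and 45.2 TPM. Bar heights of different days also carry the shift of all genes in TPM.

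The other Wnt ligands were read from a list of all 19 mouse Wnt genes. Of the 17 that are not among the 9 genes, 8 had 10 or more counts in a library, and Wnt3, Wnt8b and Wnt9b had 0 counts in all libraries. Above and below were 1 and 2 of these 8 on day 2 (15.2% and 13.1% of all genes compared), 2 and 4 on day 5 (20.2% and 13.6%), 2 and 4 on day 10 (28.7% and 22.3%), and 4 and 4 on day 14 (24.5% and 19.9%). Wnt11, a ligand that acts largely without beta-catenin, had normalized counts of 288, 449, 85.4, 40.5 and 32.3. Its change was 0.64 (0.39 to 0.89) on day 2 and -3.12 (-3.70 to -2.66) on day 14. Wnt16, a ligand known from bone, had 4, 3, 28, 51 and 23 expected counts, with a change of 2.92 (1.76 to 5.13) on day 10. Over all 19 genes the ligand RNA summed to between 57.9 TPM on day 14 and 86.6 TPM on day 10. Wnt11 held 43.7% of that sum on day 0 and 63.7% on day 2, and Wnt5a held 51.0% on day 10 and 32.3% on day 14.

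Of the 8 listed antagonists that are not among the 9 genes, Igfbp4 and Notum had 10 or more counts in a library. Igfbp4, an IGF-binding protein that can also bind Frizzled and Lrp6, had normalized counts of 245, 1145, 2392, 3274 and 4439 and was above day 0 by 3.74 (3.56 to 3.93) on day 10. Without Igfbp4, whose level exceeded that of all other antagonists together from day 5 on, the 14 antagonists summed to 0.614 times the 19 ligands on day 0 and to 1.69, 3.59, 7.10 and 8.11 times on days 2, 5, 10 and 14.

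R-spondins, secreted proteins that raise Wnt signalling through Lgr receptors, were at low levels. Rspo3 had 68, 12, 34, 56 and 32 expected counts and a change of -1.21 (-1.89 to -0.61) on day 14. On days 2, 5, 10 and 14, 1, 1, 0 and 0 of the 3 R-spondins compared were above day 0, and 2, 1, 0 and 1 were below, too few to set beside the shares of all genes.

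The list of 23 receptors and co-receptors also holds Znrf3 and Rnf43, which remove receptors from the cell surface and are not receptors themselves. Of its genes 20 were compared. On day 2, when Dkk2 was highest, 10 of them, Znrf3 and Rnf43 included, were below day 0, where 13.1% of all genes compared were. On that day 0 were above, where 15.2% were. On day 5, 5 were above and 4 below (20.2% and 13.6% of all genes). On day 10, 9 were above and 2 below (28.7% and 22.3%), and on day 14, 7 were above and 3 below (24.5% and 19.9%). Ranked here are genes of this list with 50 or more counts in a library and a change past 2-fold with an interval outside 0. Among them the Frizzled genes Fzd4, Fzd8 and Fzd1 had the largest changes on day 10 or 14. Fzd1 had normalized counts of 145, 50.7, 307, 645 and 579, with changes of -1.50 (-2.16 to -0.93) on day 2 and 2.14 (1.90 to 2.41) on day 10. Fzd8 had 50, 6, 94, 417 and 347 expected counts, and its change was 2.57 (2.16 to 3.04) on day 10. Like Fzd1 and Sfrp2 it was lowest on day 2, with a change of -2.09 (-3.70 to -0.97). Fzd4 had 5, 1.99, 13, 77 and 25 expected counts and a change of 3.23 (2.19 to 5.14) on day 10. Lgr4, an R-spondin receptor, changed by 1.92 (1.56 to 2.34) on day 10, and its relative Lgr5 by 2.04 (1.15 to 3.29) on day 14.

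Porcn, the enzyme that attaches the lipid to Wnts, was above day 0 on days 10 and 14, with a change of 1.65 (0.98 to 2.46) on day 14. Wls, the carrier that brings Wnts to the cell surface, stayed within 2-fold on all days. Of 12 listed feedback targets of beta-catenin 10 were compared, and 0 were above and 5 below on day 2 (15.2% and 13.1% of all genes compared). On day 5, 6 were above and 2 below (20.2% and 13.6%), and the numbers on day 10 were the same (28.7% and 22.3%). On day 14, 5 were above and 2 below (24.5% and 19.9%). Znrf3, Rnf43 and Lgr5 are on this list and on the receptor list, and all were below on day 2. The day 2 counts of these lists are therefore not independent. Notum and Dkk1 are also listed antagonists. Among the feedback targets Nkd2, an inhibitor of Dishevelled, had normalized counts of 59.4, 74.2, 159, 491 and 1335 and a change of 4.47 (4.12 to 4.89) on day 14. Apcdd1, a membrane inhibitor of Wnt signalling, had 18, 12, 146, 114 and 42 expected counts and was above day 0 by 2.77 (2.13 to 3.64) on day 5.

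**Figure D4:**
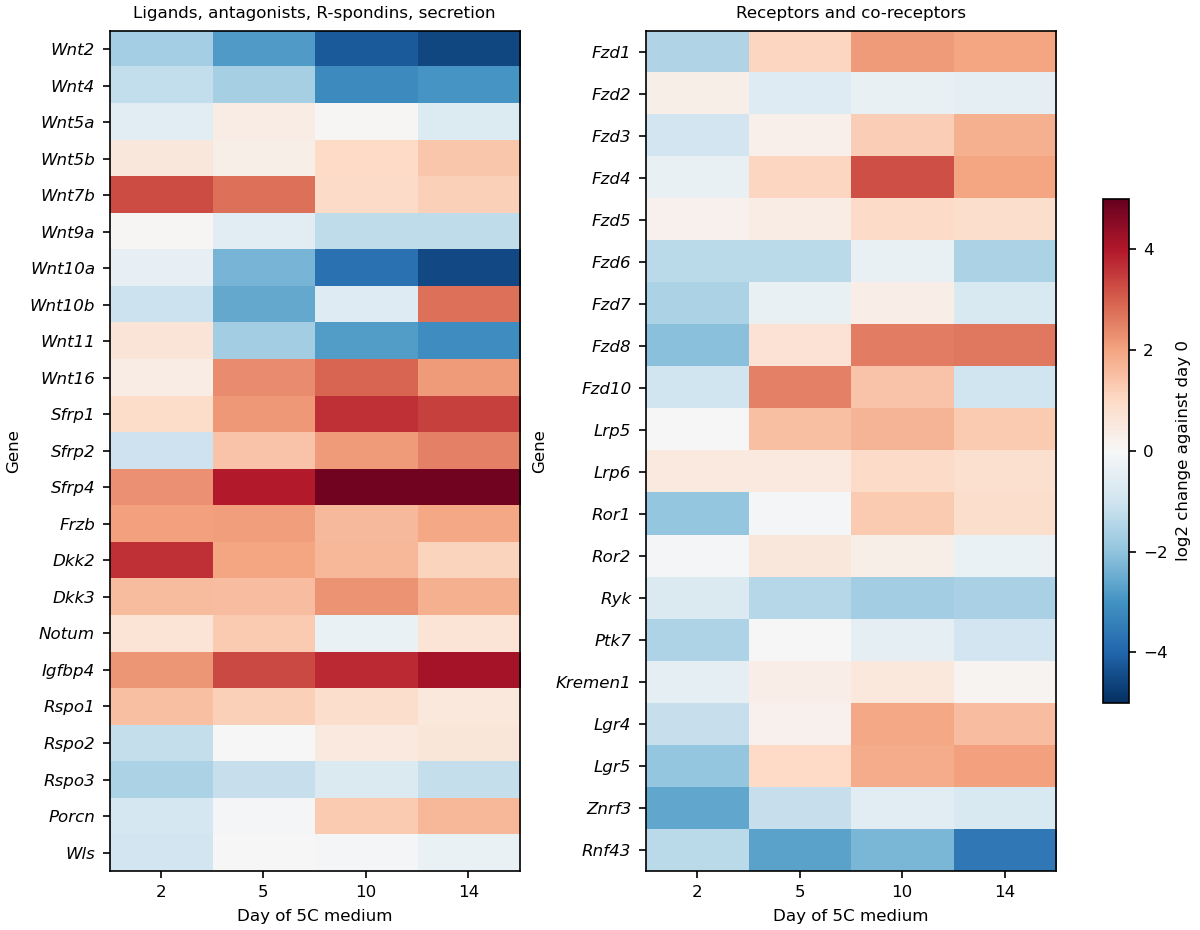
Change against day 0 (colour, log2 ratio, from -5 to 5) of the Wnt pathway genes with 10 or more counts in a library (y axis) on days 2, 5, 10 and 14 (x axis), ligands to secretion genes on the left and receptors on the right. Sfrp1, Sfrp4, Igfbp4 and Fzd8 are red on days 10 and 14, and Wnt4 and Wnt11 are blue there. On the right, 10 of the 20 genes of the receptor list, Znrf3 and Rnf43 included, are over 2-fold below day 0 on day 2. Cells of genes with 0 counts on a day, such as Wnt10a on day 14, depend on the pseudocount.

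The genes closest to each of the 9 in course were found among the 8273 genes with 100 or more counts in a library, by the root mean square difference of the 4 changes (log2), for the 6 of the 9 genes with that many counts. For Sfrp1 they were Appl2 (0.17) and Dagla (0.19), for Sfrp2 Pkd1 (0.30) and Prag1 (0.30), and for Sfrp4 Islr (0.15) and Mest (0.26). For Dkk2 they were Stab1 (0.18) and Mmp23 (0.24), for Dkk3 Ptprs (0.19) and Zcchc24 (0.19), and for Wnt5a Wdr35 (0.10) and Hdgfl3 (0.12). Frzb, Wnt4 and Wif1, which had fewer counts, were not compared in this way. Among the 6 genes compared Dkk3 was the closest to Dkk2, at a difference of 1.16 and position 105 among the 8273 genes, and also the closest to Sfrp1, at position 428. For Sfrp4 the closest was Sfrp1 at position 244, and for Dkk3 it was Dkk2 at position 1185. For Sfrp2 it was Dkk3 at position 1667, and for Wnt5a it was Sfrp2 at position 7202. All these courses share the day 0 library and 4 time points.

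Markers of other cell types moved over the same days, and their part in the results above was not tested. In the day 0 library all 10 fibroblast markers passed the count minimum, and the list summed to 17321, 14418, 14925, 20975 and 27254.5 TPM in the order of the days. Of these markers 3 were above on each later day, while 2 were below on days 2 and 5 and 4 on days 10 and 14. Of all genes compared, 15.2%, 20.2%, 28.7% and 24.5% were above on days 2, 5, 10 and 14. On the same days 13.1%, 13.6%, 22.3% and 19.9% were below. The 3 of 10 fibroblast markers above on days 10 and 14 were near these shares. All 4 smooth muscle markers were below day 0 on every day, and they summed to 10036, 1232, 511, 255 and 127 TPM. Of the 7 Schwann cell and neural crest markers, 3 were above on day 2, 6 on day 5 and 7 on days 10 and 14, and they summed to 12.45, 17.7, 202, 1828 and 1989.6 TPM. The 7 macrophage markers were all above on days 2 and 5 and 6 of them on days 10 and 14, and they summed to 50.8, 446, 1546, 1078 and 646 TPM. Ptprc, a macrophage marker of this list, had 0, 1, 8, 22 and 4 expected counts, so its day 2 call rests on 1 count.

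Of 9 neuron markers 4 passed the count minimum, Rbfox3 had 0 counts in all libraries and Dcx, Elavl3 and Syt1 had at most 1, 1 and 2. Of the 4, Tubb3 and Snap25 were above and Map2 and Stmn2 below on days 5, 10 and 14, and on day 2 Map2 alone was below. These are too few to set beside the shares of all genes. Snap25 had 0, 0, 22, 11.96 and 7.01 expected counts, so the size of its changes depends on the pseudocount. The list summed to 103 TPM on day 0, 51.1 TPM on day 2 and 119 TPM on day 14. The 4 endothelial markers summed to 14.25, 1.51, 1.47, 3.42 and 0.93 TPM in the order of the days. Kdr among them had 238, 2, 6, 9 and 4 expected counts. The 5 epithelial markers, of which Ocln had 0 counts, summed to 9.32, 65.6, 31.5, 8.81 and 5.56 TPM.

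Gene length moved with the day as well. In the length bins of Sfrp1, Dkk2 and Wnt5a the median change was 0.74, 0.69 and 1.01 on day 10, and in that of Sfrp4, a shorter gene, it was -0.41. After these medians were subtracted, the day 10 change was 2.89 for Sfrp1, 5.26 for Sfrp4, 2.37 for Sfrp2, 1.75 for Dkk3 and -3.76 for Wnt4. The part of gene length in the results was not tested further.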

How the data were processed

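The 5 libraries, 1 for each of days 0, 2, 5, 10 and 14, were made from total RNA with a TruSeq RNA kit and assigned to their day by the labels. The submitters' processing notes name Bowtie, RSEM and the mm10 build. Their versions, the annotation, any filter and any use of strand are not given in the sources used here. The authors deposited expected counts, the estimated and unscaled numbers of reads that RSEM gives to a gene. The deposited TPM values are divided by gene length and scaled to 1000000 per library. The FPKM values that the authors deposited beside them were not used here.

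Identifiers were matched to symbols and coordinates of GENCODE M21 (GRCm38, the build the notes call mm10), which held 27247 of 27729 genes. Expected counts were rounded to compute TMM factors with edgeR 4.0.16 in R 4.3.3, which lay between 0.808 and 1.19. To normalize, each expected count was divided by the effective size of its library and multiplied by the geometric mean of the 5 sizes. A change is a log2 ratio of normalized counts to day 0, after a pseudocount of 1. For changes in TPM the same pseudocount of 1 was added to the TPM values. The 13346 genes that reached 10 expected counts in any library were compared with a threshold of 2-fold, which is a rule of size and no statistical test. Intervals of ratios are exact Clopper-Pearson 95% intervals of rounded counts without a pseudocount, those of single counts are exact Poisson intervals, and both cover counting error only. TPM values, divided by length, were used to compare genes, and the intervals behind their order came from the counts of both genes. Total counts per library and the 3-count floors are given with the results.

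The 9 genes, the pathway lists and the marker lists were chosen with earlier results of these data known. Other pathway genes were named where they had 50 or more expected counts in a library and a change past 2-fold with an interval outside 0 on day 10 or 14, at most 5 per list and the largest first. The 2 genes closest in course to each of the 9 genes with 100 or more counts were named as well. Alternatives were DESeq2 size factors (version 1.42.0), total counts, library sizes without Gm42418 and Lars2, TPM values, centred TPM values, medians of 20 length bins subtracted, quantile normalization with limma 3.58.1, a pseudocount of 5 or none, other count minimums and a 4-fold threshold. The computations were tested on simulated counts with counting noise only and few genes changed. This checks the code and not the scaling of the real libraries, in which many genes changed. Other steps ran in Python 3.11.15 (scipy 1.17.1, numpy 2.4.6, matplotlib 3.10.9, pandas 2.3.3). RefSeq promoters came from a table of GRCm38.p6.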

Additional observations from a re-analysis of the deposited data

How the results depend on the processing

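On no day was any of the 8 genes compared over 2-fold above day 0 in 1 setting and over 2-fold below in another. Wnt5a did change sign, from -0.67 on day 14 to 0.34 in TPM. On day 10 it was 1.54 in TPM and -0.93 after length bins. Of 316 changes of single genes under the alternatives 273 stayed within their counting interval. The other 43 did not, most of these in TPM, in total counts or after length bins. The 316 include those of Wif1, whose intervals have no upper bound, so its changes could hardly fall outside. The number of genes above day 0 was within 1.5 times its value in 46 of 48 comparisons and fell from 6 to 3 with a 4-fold threshold on days 5 and 14. The number below day 0 was within 1.5 times in 40 of 48. On day 2 it was 2, with 3 in TPM, 1 in centred TPM, after length bins, with quantile normalization and with a pseudocount of 5, and 0 at 4-fold. On day 5 it was 1, with 0 in TPM and at 4-fold, and on day 14 it was 1, with 2 after length bins. The changes in TPM hold 1 TPM added to each value, which makes those of genes at a few TPM, such as Wnt4 and Frzb, smaller. The median change of the 9 genes was 1.93 with total counts and 2.03 in TPM on day 5, in place of 1.56, and 2.57 in TPM on day 10, in place of 1.66, which follows a shift of all genes. On day 2 this median was 0.60 in TPM, 0.80 in centred TPM and 0.90 with a pseudocount of 5, in place of 1.49. On day 14 it was 1.12 in centred TPM, in place of 1.93. Without TMM factors the median of all genes compared was 0.37, 0.46 and 0.35 higher on days 5, 10 and 14, and in TPM it was 0.56, 0.95 and 0.72 higher and on day 2 changed by -0.17. Quantile normalization moved it by -0.13 and -0.11 on days 10 and 14. In TPM 7.90%, 32.0%, 52.9% and 41.6% of all genes compared were above on days 2, 5, 10 and 14, and 3.98%, 6.77% and 6.97% were below on the last 3 of these, where the values by normalized counts were 15.2%, 20.2%, 28.7% and 24.5% above and 13.6%, 22.3% and 19.9% below. With total counts 7.55% and 14.5% were below on days 5 and 10. Of all calls 59.6% were above on day 5 (79.1% with total counts, 88.9% in TPM), 56.3% on day 10 (73.1% and 88.6%) and 55.2% on day 14 (70.4% and 85.6%), and on day 2 53.7% (36.0% in TPM). At 4-fold the share above was 64.7%, 75.8%, 63.6% and 65.7% on days 2, 5, 10 and 14. No replicate could be left out and no paired analysis was possible because each day is 1 library. The 4-fold threshold gives no median. Depth limits Wif1, Wnt4 and the day 0 values of Sfrp4 and Frzb, which rest on under 10 counts in a library.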

Other observations

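Several Wnt genes of low count differed between days, and they are named here after their values were seen. Wnt10b, a ligand known from fat and bone, had 5, 1, 0, 4 and 44 expected counts in the order of the days, and its log2 change on day 14 was 2.76 (95% counting interval 1.66 to 4.68). It held 1.22% of the TPM of all 19 Wnt ligands on day 10 and 19.7% on day 14. Wnt2, a ligand of mesenchyme, had 44, 7, 6, 2 and 1 expected counts, and Wnt10a had 22, 9, 4, 1 and 0, so that both were highest in the starting MEFs, as Wnt4 was. Wnt7b had 1, 10, 14, 4 and 4 expected counts.

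Axin2, the feedback inhibitor most often read for beta-catenin activity, had 8, 1, 10, 48 and 30 expected counts and a log2 change of 1.98 (1.02 to 3.41) on day 10. Tcf7 had 7, 6, 27, 34 and 25, while Lef1, a factor of the same family, had 17.0, 3.06, 13.0, 5.01 and 0.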
